A study of Mus musculus with 6 samples.

Results

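The microRNA genes outside the Dlk1-Dio3 region are described here as they were read on arrays of mouse embryonic stem cells. Members were chosen by 3 criteria: the array feature had exactly 1 gene symbol in the platform's annotation, that symbol began with Mir followed by a digit, and the mean of the feature over the 6 arrays was at least 6.7 on the log2 intensity scale. Features between Dlk1 and Dio3 on chromosome 12 were left out. Of 296 features named by 1 microRNA symbol, 40 lay inside that region and 256 outside it, and 70 of the 256 were members. The means that chose the members are therefore given as a description only. All 70 members passed the filter on low values and were among the 16912 features tested. Just under the floor lay Mir99ahg (6.66), Mir693 (6.68) and Mir425 (6.68), and just over it lay Mir670 (6.72), Mir504 (6.73) and Mir138-2 (6.74). Mir219a-2 in LIF/PD arrays, Mir100hg and Mir135b in GCSF arrays and Mir670 in control arrays had a group mean under 6.7. These 4 members passed through the groups in which they were higher. Their differences from the group under the floor, and counts that include them, are a description only.

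Total RNA of C57Bl/6 embryonic stem cells was labelled and hybridised to single-colour arrays, 2 arrays in each of 3 groups. All 6 samples, controls included, came from cells stably expressing a chimeric receptor that the labels call GRgp-Y118F. The LIF/PD samples had received the cytokine LIF together with PD0325901 at 1 uM, an inhibitor of the kinase MEK, for 1 h, and the GCSF samples had received the cytokine GCSF for 1 h. Both followed 6 h in serum-free medium. The control samples were untreated, and no source used here states whether they too were kept without serum. No label states that replicate samples were grown as separate cultures. The p-values therefore speak only of the spread among the arrays at hand, and that spread may be technical. The RNA came from whole cultures, so fewer cells of a type and less RNA per cell cannot be told apart.

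The labels were checked against genes with known responses. Socs3, a feedback inhibitor induced by STAT3, was higher than control by 2.62 ± 0.07 log2 in LIF/PD arrays and by 3.13 ± 0.07 in GCSF arrays (limma, adjusted p = 1.21e-06 and 2.7e-07). The ERK-dependent genes Dusp6 and Spry4 differed from control by 0.03 ± 0.04 and 0.05 ± 0.06 in LIF/PD arrays (adjusted p = 0.937 for each), and by -1.56 ± 0.04 and -1.83 ± 0.06 in GCSF arrays (limma, adjusted p = 5.66e-07 and 4.03e-06). A fall of ERK targets thus stood in the arrays labelled GCSF and not in those whose label names the MEK inhibitor, which goes against the labels. The labels were kept, and each direction below is a statement about arrays so labelled. All 10 listed stem cell markers were tested, with means of 9.21 to 13.69. In GCSF arrays 3 of them rose against control, Klf4 by 0.92 ± 0.06, Tdgf1 by 0.30 ± 0.03 and Fgf4 by 0.29 ± 0.03 (limma, adjusted p = 2.79e-04, 0.0019 and 0.00325). Utf1 lay lower there, by -0.16 ± 0.03, and did not pass (limma, adjusted p = 0.0527). In LIF/PD arrays none was called against control. For LIF/PD minus GCSF 1 was called higher, Utf1 (0.23 ± 0.03, limma, adjusted p = 0.0137), and 2 lower, Klf4 and Tdgf1.

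Markers of other cell types were also read. Of 8 feeder fibroblast markers 7 were tested, and the means of the 8 ran from 5.605 (Lum) to 12.24 (Acta2), with Col1a1 at 10.81 and Postn at 10.59. In GCSF arrays the collagen gene Col3a1 rose by 0.29 ± 0.05 (limma, adjusted p = 0.041), and in LIF/PD arrays no fibroblast marker was called. Of 3 neuroectoderm markers tested of 5, Pax6 rose by 0.54 ± 0.07 in GCSF arrays (limma, adjusted p = 0.00715) and differed by 0.40 ± 0.07 in LIF/PD arrays (adjusted p = 0.182). No marker of primitive endoderm (4 of 6 tested), mesoderm (2 of 5) or trophoblast (4 of 5) was called in any contrast, and their means ran up to 9.83, 8.22 and 9.02. The part of these cells in the members' values was not tested.

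MicroRNAs are cut from hairpins within longer primary transcripts by the nuclear enzyme Drosha with its partner Dgcr8, exported by Xpo5, trimmed by Dicer1 and loaded into Argonaute proteins. The loaded strand recognises messenger RNAs mainly through its seed, a short run near the 5′ end, and lowers their stability and translation. Many microRNA genes lie inside introns of protein-coding genes or in clusters on one transcript, and embryonic stem cells are known for the miR-290, miR-302 and miR-17-92 clusters. An array hybridised with labelled total RNA can read the primary transcript, the hairpin or both, and no source used here states which of these the features read.

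Mature microRNAs were matched to RefSeq (GRCm38.p6) for 60 of the 70 members, which gave 107 mature sequences with 96 distinct seeds, and 10 members had no entry in that table. Pairs of members shared 11 of these seeds, 22 members in all. The hairpin of Mir674, the member with the largest difference between groups, lies at chr2:117185127-117185226 on the plus strand and is shown with its 5p and 3p mature arms in capitals:
Mir674 hairpin: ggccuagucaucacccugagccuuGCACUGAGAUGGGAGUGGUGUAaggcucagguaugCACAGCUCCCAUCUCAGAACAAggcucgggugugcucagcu
In the sequences that follow, capitals mark the seed, bases 2 to 8. The first pair are the products of Mir674, and the next 6 belong to other members whose differences are described in detail below:
mmu-miR-674-5p: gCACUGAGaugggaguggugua
mmu-miR-674-3p: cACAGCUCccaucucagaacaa
mmu-miR-15a-5p: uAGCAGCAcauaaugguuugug
mmu-miR-505-3p: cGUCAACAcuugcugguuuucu
mmu-miR-455-3p: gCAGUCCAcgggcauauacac
mmu-miR-218-5p: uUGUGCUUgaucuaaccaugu
mmu-miR-128-3p: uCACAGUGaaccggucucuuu
mmu-miR-129-5p: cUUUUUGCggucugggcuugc
The remaining sequences come from seed families known in embryonic stem cells. The products miR-93-5p and miR-106b-5p have the same seed, as do miR-19a-3p and miR-19b-3p, and miR-25-3p and miR-92b-3p:
mmu-miR-93-5p: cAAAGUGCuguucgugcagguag
mmu-miR-106b-5p: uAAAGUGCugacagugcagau
mmu-miR-19a-3p: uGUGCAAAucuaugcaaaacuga
mmu-miR-19b-3p: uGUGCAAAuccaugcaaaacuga
mmu-miR-25-3p: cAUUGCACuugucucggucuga
mmu-miR-92b-3p: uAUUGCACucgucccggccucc
The seed of miR-15a-5p, printed above, was shared with the product of Mir497 on chromosome 11, which is shown because Mir15a was called between the treatments:
mmu-miR-497a-5p: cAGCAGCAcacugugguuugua

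The 70 members lay on 20 chromosomes, with 8 each on chromosomes 7, 8 and 14. Of these, 27 lay on the same strand within a RefSeq host gene, 13 lay within a gene of the other or an unlisted strand, and 30 in neither. Genes whose own symbol begins with Mir and a digit, such as Mir17hg, were not counted as hosts. The 30 thus include Mir18, Mir19a and Mir19b-1 of the Mir17hg locus, and are not all known to lie outside a host transcript. The symbols of Mir17hg and Mir100hg name host transcripts rather than hairpins. Intensities were low. Member means ran from 6.72 to 10.63 with a median of 7.41, against a median of 8.63 over all tested features, and 37 members had a mean under 7.5. Features numbered below the lowest annotated one are called the control block here, a rule that rests on their numbers alone. The block had a median of 6.67 and a 75th percentile of 8.16, and 16 members lay above that percentile. None of the 70 members lay above the control block's 95th percentile, 11.27. That percentile exceeds the median of the tested features, so the block holds bright features and is no measure of background. The brightest members were Mir692-1 (10.63), Mir346 (9.61), Mir6516 (9.46), Mir598 (9.24), Mir505 (8.88), Mir328 (8.76), Mir320 (8.70), Mir7-1 (8.58), Mir210 (8.57) and Mir18 (8.53). Intensities of different features cannot be set against each other as RNA levels, so this order is one of brightness and not of abundance.

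Base composition is given as a description of brightness, which the choice of members used, and not of RNA levels. G and C made up a median of 57.2% of the RefSeq hairpin in the 52 members that had a hairpin sequence (range 41.7% to 69.2%), and 45.6% in the 160 features outside the region that were dimmer than 6.7 (range 28.4% to 61.6%). Over these 212 features, all read on the same 6 arrays, the mean intensity correlated with hairpin G and C content with a Pearson r of 0.72 and a Spearman rho of 0.72. Among the 52 members alone the values were 0.10 and 0.14. The differences between groups were only weakly related to it among the members, with r = -0.22 for GCSF minus control and r = -0.10 for LIF/PD minus control. The part of base composition in the intensities was not tested. Hairpins of the members were 64 to 110 bases long, with a median of 89.

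**Figure D1:**
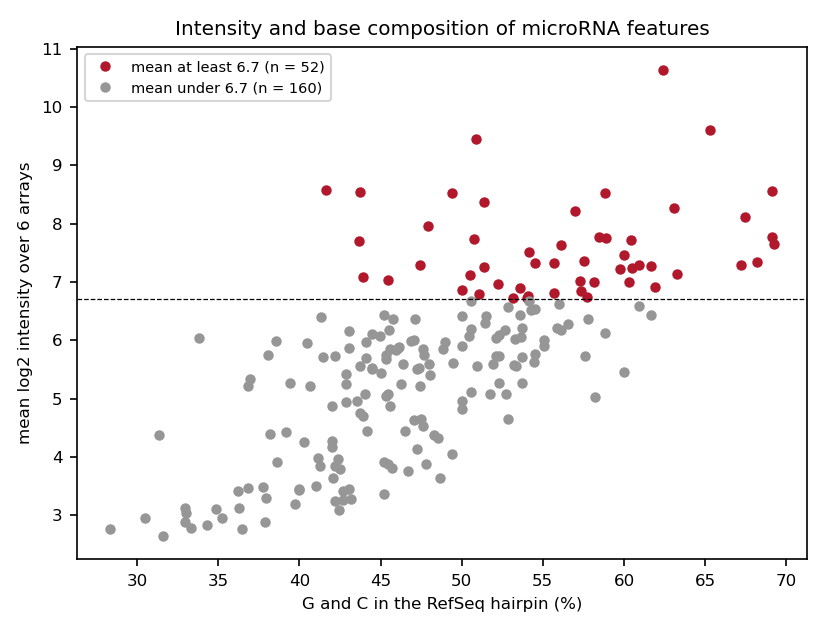
Mean log2 intensity over the 6 arrays (vertical axis) against the percentage of G and C in the RefSeq hairpin (horizontal axis) for 212 microRNA features outside the Dlk1-Dio3 region, 52 members in red and 160 dimmer features in grey, with the floor of 6.7 dashed. The median was 57.2% in members and 45.6% in dimmer features.

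Replicate arrays of a group correlated at 0.9968 to 0.9977 over the tested features and arrays of different groups at 0.9951 to 0.9978. Over the members alone the values were 0.9849 to 0.9903 within groups and 0.9631 to 0.9895 between groups. The median within-group residual SD was 0.0768 log2 for the members, 0.0562 for all tested features and 0.0737 for the 4559 tested features within the members' interquartile range of means, 7.05 to 8.10. The spread between replicates of the members was thus close to that of other features of the same brightness.

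In GCSF arrays 2 of the 70 members fell relative to control and none rose, and most members differed little: 63 lay within 0.2 log2 of control. Mir674 and the host transcript Mir100hg were the pair that fell, each by 0.65 log2. The mean of Mir100hg in GCSF arrays, 6.54, lay under the floor, and it was a member through its higher LIF/PD and control arrays. Its fall and all counts that include it are therefore a description only. The 2 called members are 2.86% of the 70, where 1.17% of all tested features were called, 0.804% as higher and 0.367% as lower. At an unadjusted p under 0.05 were 6 members, 3 higher and 3 lower, 8.57% of the members. Of all tested features 12.1% had such a p, 7.04% with a higher and 5.07% with a lower value.

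Mir674 read 8.50 and 8.43 in LIF/PD arrays, 7.71 and 7.82 in GCSF arrays, and 8.41 and 8.42 in control arrays. Both GCSF arrays lay below all 4 others, with a gap of more than 0.5 log2. The difference of GCSF from control was -0.65 ± 0.06 log2, a level 1.57-fold lower (SE, n = 2 arrays per group; limma, adjusted p = 0.00175). Under LIF/PD Mir674 differed from control by 0.05 ± 0.06 (limma, adjusted p = 0.932), and LIF/PD exceeded GCSF by 0.70 ± 0.06 (limma, adjusted p = 0.00205). These calls were lost in the fit without moderation of variances, with adjusted p = 0.204 for GCSF against control and 0.266 for LIF/PD against GCSF, and for LIF/PD against GCSF also with the control block as a covariate (adjusted p = 0.0938).

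Mir674 starts 2847 bases past the annotated end of Spred1 on chromosome 2. Spred1, which encodes an inhibitor of Ras and ERK signalling of the Sprouty-related family, read 10.31 and 10.28 in LIF/PD arrays, 10.17 and 10.04 in GCSF arrays, and 10.31 and 10.36 in control arrays. Its GCSF arrays were likewise the lowest, yet its difference from control, -0.23 ± 0.05, did not pass (limma, adjusted p = 0.0946). LIF/PD lay 0.19 ± 0.05 above GCSF for Spred1, which did not pass either (limma, adjusted p = 0.162). Whether the feature named Mir674 reads RNA that continues from Spred1 was not tested.

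Mir100hg, on chromosome 9, is the primary transcript that spans Mir100, Mirlet7a-2 and Mir125b-1. It read 6.91 and 7.18 in LIF/PD arrays, 6.49 and 6.60 in GCSF arrays, and 7.20 and 7.18 in control arrays. The GCSF arrays lay below all others and under the floor of 6.7, while 1 LIF/PD array read as the controls did. As Mir100hg was a member through its higher arrays, its tests against GCSF arrays are given as a description only. GCSF differed from control by -0.65 ± 0.10 log2, 1.56-fold lower (limma, adjusted p = 0.0195), and LIF/PD from control by -0.14 ± 0.10 (limma, adjusted p = 0.831). The call rested on all 4 arrays compared: without control replicate 1 or 2 the adjusted p was 0.155 or 0.115, and without GCSF replicate 1 or 2 it was 0.132 or 0.0561 (limma). With no moderation it was 0.366 and with the control block as a covariate 0.117, while the difference stayed between -0.70 and -0.59 under all 17 alternatives that could be run.

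The hairpin genes Mir125b-1 and Mir100 of that transcript were too dim to be members. Mir125b-1, a lin-4 family gene, read 5.55 and 5.97 in LIF/PD arrays, 5.10 and 5.51 in GCSF arrays, and 5.58 and 5.72 in control arrays. Mir100 read 4.71 and 4.66 in LIF/PD arrays, 4.73 and 4.71 in GCSF arrays, and 4.53 and 4.61 in control arrays. The GCSF arrays were thus the lowest for Mir125b-1 and not for Mir100, and neither was tested.

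**Figure D2:**
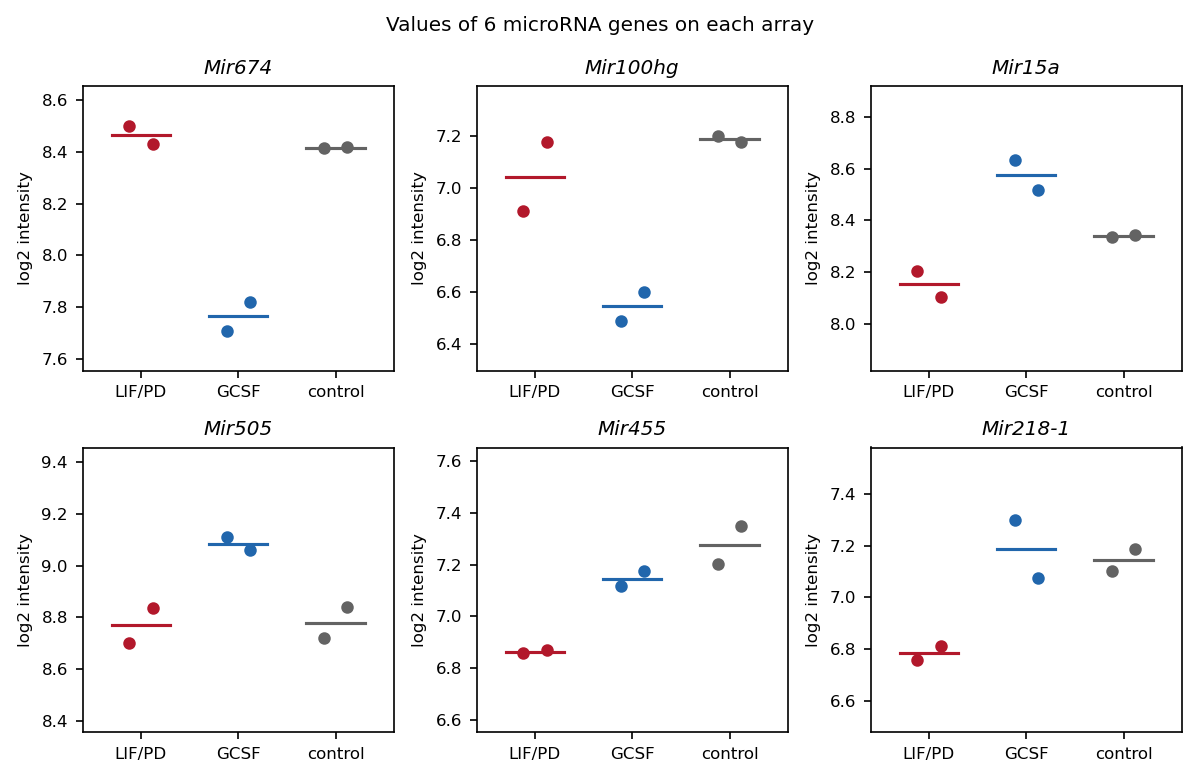
Log2 intensity (vertical axes, each with its own range) of 6 microRNA genes on each array, with LIF/PD, GCSF and control from left to right, a point for each array and a line at the group mean (n = 2). GCSF arrays were lowest for Mir674 and Mir100hg and highest for Mir15a and Mir505, and LIF/PD arrays were lowest for Mir15a, Mir455 and Mir218-1.

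The members that lay highest in GCSF arrays did not pass. Mir505, an X-linked gene, read 8.70 and 8.84 in LIF/PD arrays, 9.11 and 9.06 in GCSF arrays, and 8.72 and 8.84 in control arrays. Both GCSF arrays lay above the 4 others, and GCSF exceeded control by 0.30 ± 0.06 log2 (limma, adjusted p = 0.0805). Mir128-1, a brain-enriched microRNA gene within R3hdm1, read 6.76 and 6.75 in LIF/PD arrays, 7.02 and 7.06 in GCSF arrays, and 6.84 and 6.73 in control arrays. Its difference of 0.25 ± 0.08 did not pass (limma, adjusted p = 0.217), and R3hdm1 itself differed by 0.03 ± 0.04. Mir15a (0.24 ± 0.06, limma, adjusted p = 0.169), Mir17hg (0.20 ± 0.12, 0.587) and Mir125a (0.13 ± 0.08, 0.6) followed.

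On the low side, Mir129-1, known for its expression in brain, read 7.85 and 7.97 in LIF/PD arrays, 7.88 and 7.80 in GCSF arrays, and 8.21 and 8.05 in control arrays. Treated arrays of both kinds lay below both controls, by 0.29 ± 0.08 in GCSF and 0.22 ± 0.08 in LIF/PD, and neither difference passed (limma, adjusted p = 0.168 and 0.714). Mir135b, within Lemd1 on chromosome 1, differed from control by -0.20 ± 0.10 in GCSF arrays and by 0.21 ± 0.10 in LIF/PD arrays. The GCSF mean of Mir135b lay under the floor, so its difference there is a description only. Mir375, known for its part in pancreatic islet cells, differed by -0.17 ± 0.09 and Mir326 by -0.15 ± 0.07 in GCSF arrays, with arrays that did not overlap. For Mir135b, Mir375 and Mir326 the adjusted p of GCSF against control was 0.485, 0.472 and 0.451 (limma).

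Groups of 2 arrays often do not overlap, and the members' count was near the background: 30 members (42.9%) had GCSF and control arrays that did not overlap, 11 higher (15.7%, against 23.7% of all tested features) and 19 lower (27.1%, against 18.2%), in all against 41.8% of the tested features. A difference below 0 was found for 42 members (60%), against 46.3% of the tested features, with a median of -0.03 log2 against 0.01.

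In LIF/PD arrays no member was called against control (limma, 0 of 70). Of all tested features 0.065% were called, 0.0591% as higher and 0.00591% as lower. In the same contrast 7 members, all lower, had an unadjusted p under 0.05. These were 10% of the members, where 6.59% of the tested features had such a p, 4.7% with a higher and 1.89% with a lower value. The lowest adjusted p of any member was 0.241, for Mir455.

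Mir455 lies within Col27a1, a cartilage collagen gene, and is known for its expression in chondrocytes. It read 6.86 and 6.87 in LIF/PD arrays, 7.12 and 7.18 in GCSF arrays, and 7.20 and 7.35 in control arrays. The LIF/PD arrays lay below all others, and the difference from control was -0.41 ± 0.08 log2. Col27a1 differed from control by -0.03 ± 0.07. Mir218-1, which lies within the axon guidance gene Slit2 and is known from motor neurons, read 6.76 and 6.81 in LIF/PD arrays, 7.30 and 7.08 in GCSF arrays, and 7.10 and 7.19 in control arrays. Its LIF/PD arrays again lay below all others, by 0.36 ± 0.09 against control (limma, adjusted p = 0.521), and Slit2 differed by -0.11 ± 0.04 (limma, adjusted p = 0.719).

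The other members with an unadjusted p under 0.05 in this contrast were Mir15a (-0.19 ± 0.06), Mir129-1, given above, Mir346 (-0.13 ± 0.04), Mir383 (-0.21 ± 0.08) and Mir211 (-0.17 ± 0.07), a gene within the melanocyte gene Trpm1. Mir383 and Mir211 are outside the naming rule and are given because they complete the count. The members that lay higher without overlap were Mir18 (0.12 ± 0.07), Mir7-1 (0.09 ± 0.06), Mir670 (0.13 ± 0.08), and Mir135b and Mir674, given above. Their adjusted p ranged from 0.781 to 0.932 (limma). The control mean of Mir670 lay under the floor, so its difference is a description only.

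Most members lay slightly below control in LIF/PD arrays. A difference below 0 was found for 52 of 70 (74.3%), against 42.1% of all tested features, and the median was -0.06 log2 against 0.01. LIF/PD and control arrays did not overlap for 31 members (44.3%), against 38.4% of all tested features. Of these 26 were lower, 37.1% of the members against 14.4% of all features, and 5 were higher, 7.14% against 24%. Among the 4559 features of like brightness 46.8% lay below 0, with a median of 0.01. LIF/PD replicate 1 lay below the control mean for 55 members (median -0.07) and replicate 2 for 45 (median -0.03), and replicate 1 was the lowest of the 6 arrays for 21 members. The array lowest for the most members was GCSF replicate 1, with 23. The median of the control block was 6.58 and 6.68 in LIF/PD arrays, 6.84 and 6.71 in GCSF arrays, and 6.66 and 6.71 in control arrays, so LIF/PD replicate 1 was also lowest there. The median of LIF/PD minus control was -0.03 without LIF/PD replicate 1 and -0.07 without LIF/PD replicate 2. With the control block median as a covariate it was -0.07.

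**Figure D3:**
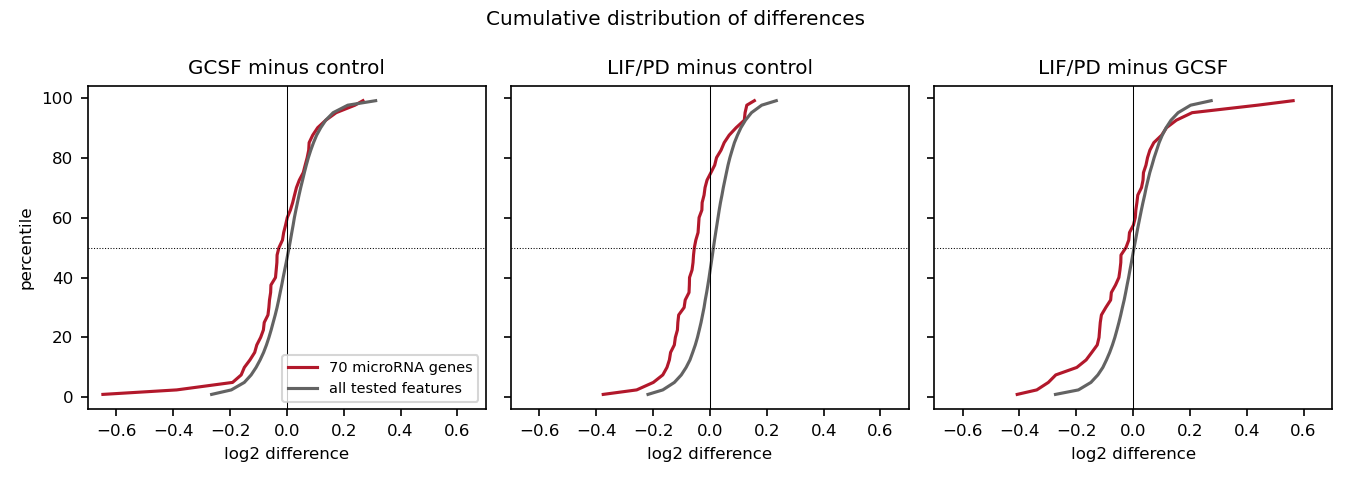
Percentiles (vertical axis) of the log2 differences (horizontal axis) of the 70 microRNA genes in red and of all 16912 tested features in grey, for GCSF minus control, LIF/PD minus control and LIF/PD minus GCSF. The red line lies left of the grey one over most of its course in the middle panel, where 74.3% of the members and 42.1% of all features were below 0.

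Between the treatments 1 member was higher and 1 lower in LIF/PD than in GCSF arrays, 2.86% of the members. Of all tested features 0.846% were called, 0.402% as higher and 0.443% as lower. The higher one was Mir674, described above. The lower one was Mir15a, a gene of the Dleu2 locus known to restrain Bcl2 and cell cycle genes. At an unadjusted p under 0.05 were 14 members (20% against 11.8%), 5 higher and 9 lower. Of all tested features 6.96% had such a p and were higher, and 4.83% lower. The 14 include Mir100hg, Mir135b and Mir219a-2, each with a GCSF or LIF/PD mean under the floor. The count of 14 is therefore a description only.

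Mir15a read 8.20 and 8.10 in LIF/PD arrays, 8.63 and 8.52 in GCSF arrays, and 8.34 and 8.34 in control arrays. The 3 groups did not overlap, with control between the treatments. LIF/PD lay 0.42 ± 0.06 log2 below GCSF, 1.34-fold (limma, adjusted p = 0.0252), while the differences from control, -0.19 ± 0.06 in LIF/PD and 0.24 ± 0.06 in GCSF, did not pass (adjusted p = 0.705 and 0.169). The call was lost under 9 of 18 alternatives, with no intensity trend (adjusted p = 0.0527), in the fit of only the 4 arrays compared (0.0602), with no moderation (0.366) and with the control block as a covariate (0.432, limma). Leaving out control replicate 1 or 2 gave 0.0615 or 0.0619, GCSF replicate 1 gave 0.14, and LIF/PD replicate 1 or 2 gave 0.105 or 0.178. The difference stayed between -0.48 and -0.36 under all 18.

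Mir16-1, the partner of Mir15a in the same locus, was too dim to be a member. It read 5.93 and 5.84 in LIF/PD arrays, 6.13 and 6.04 in GCSF arrays, and 6.02 and 5.88 in control arrays. Both its LIF/PD arrays lay below both GCSF arrays, as for Mir15a and for 19.1% of all tested features. Its LIF/PD and control arrays overlapped, unlike those of Mir15a, and Mir16-1 was not tested. The feature of the host transcript Dleu2 had a mean of 3.02 and was also below the filter.

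Mir100hg was 0.50 ± 0.10 higher in LIF/PD than in GCSF arrays and did not pass (limma, adjusted p = 0.0681), although it did after quantile normalization (0.54, adjusted p = 0.0457). Mir505 lay 0.32 ± 0.06 lower in LIF/PD (adjusted p = 0.0784), Mir218-1 0.40 ± 0.09 lower (0.111), Mir128-1 0.28 ± 0.08 lower (0.171) and Mir455 0.28 ± 0.08 lower (0.174, limma). Mir135b lay 0.41 ± 0.10 higher (0.147), Mir7-1 0.16 ± 0.06 higher (0.339) and Mir6516 0.25 ± 0.09 higher (0.353, limma). Mir100hg and Mir135b had GCSF means under the floor, so their values here are a description only. All members named in this paragraph had LIF/PD and GCSF arrays that did not overlap. Such arrays were found for 28 members (40%), 11 higher (15.7%, against 22.4% of all tested features) and 17 lower (24.3%, against 19.1%), in all against 41.5%. The difference was below 0 for 40 members (57.1%, against 48.1%), with a median of -0.03 against 0.00.

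**Figure D4:**
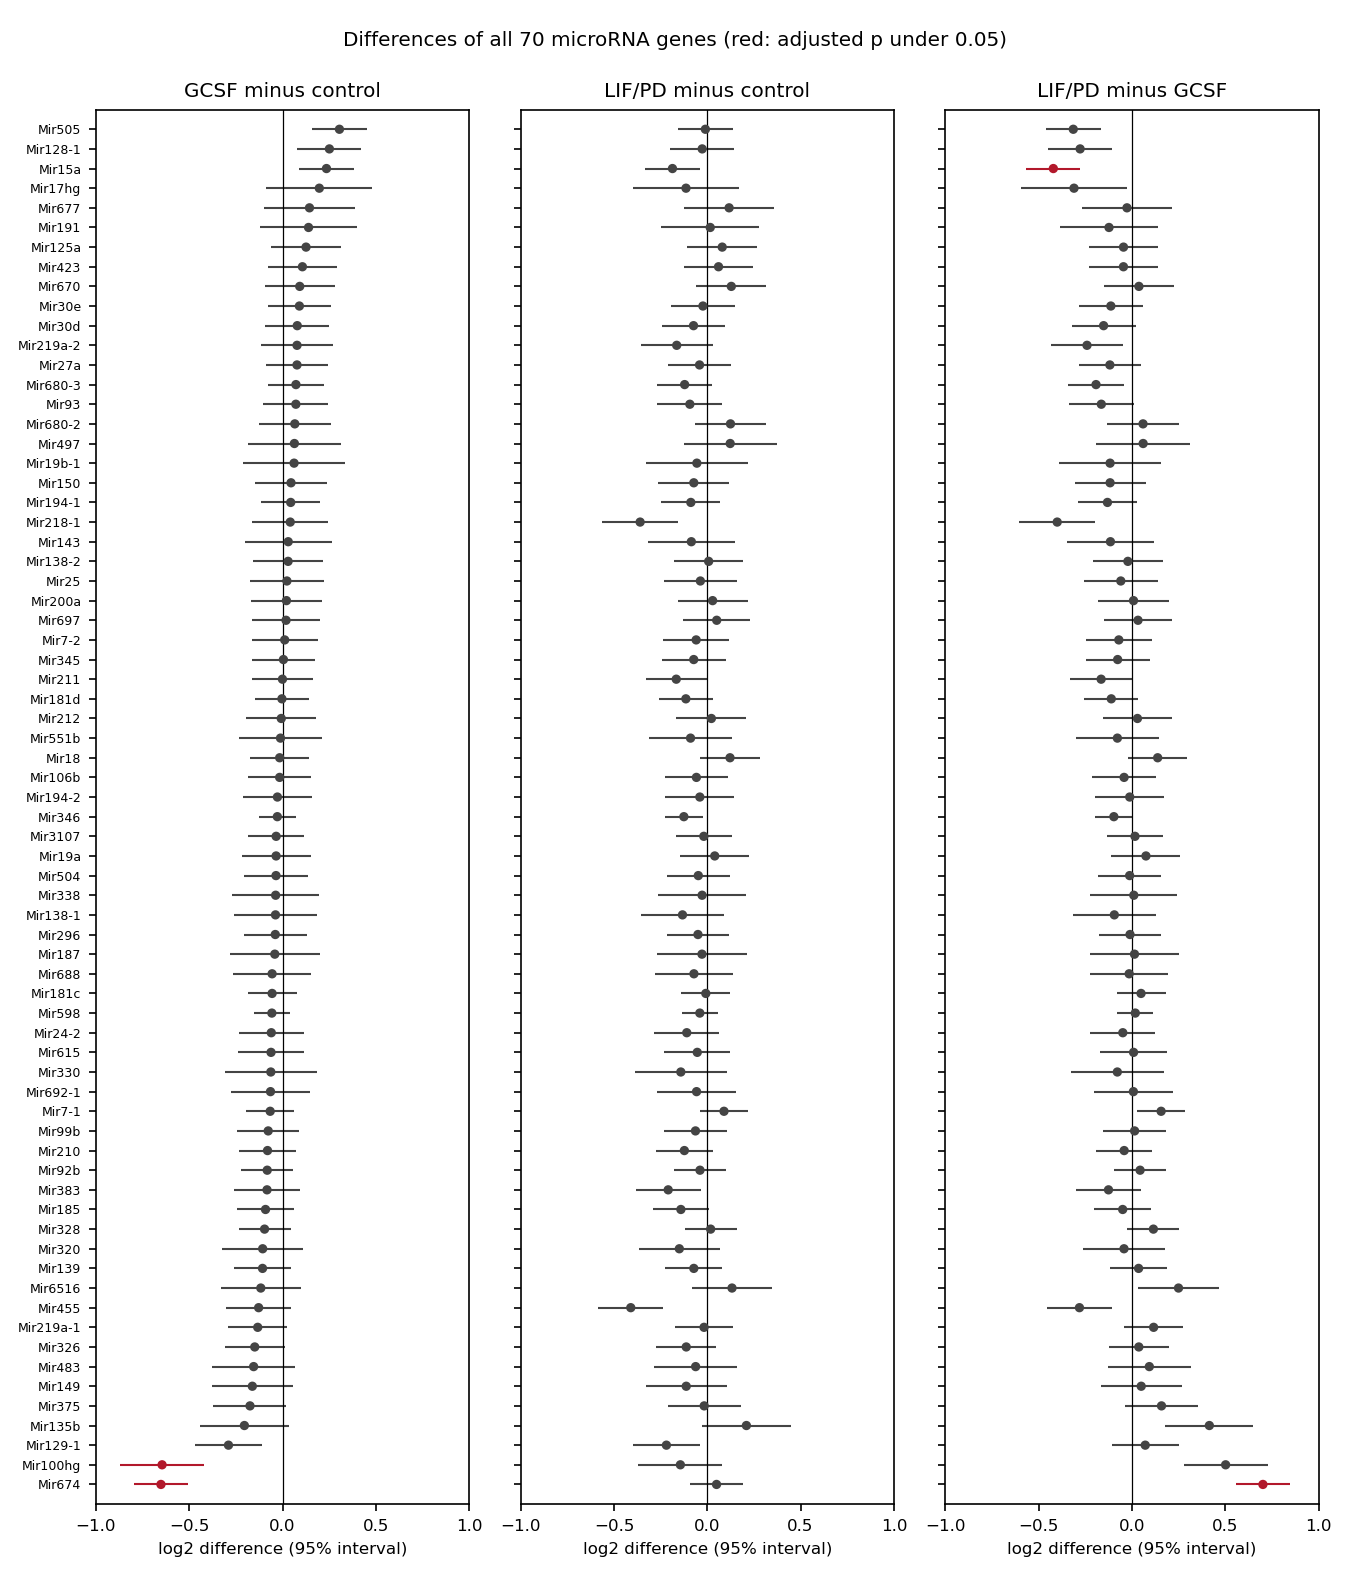
Log2 differences (horizontal axes) of all 70 microRNA genes (rows, ordered by GCSF minus control) with 95% intervals from limma, for GCSF minus control, LIF/PD minus control and LIF/PD minus GCSF, with red marking an adjusted p under 0.05. The red intervals are those of Mir674 and Mir100hg in the left panel and of Mir674 and Mir15a in the right panel.

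The microRNA clusters known from embryonic stem cells were partly represented. Of 31 names listed from the miR-290, miR-302, miR-17-92, miR-106b-25 and miR-106a clusters, 18 had a single-symbol feature, and 6 of these were members. No single-symbol feature named a gene of the miR-290 cluster. The 5 features of the miR-302 cluster, Mir367 included, had means of 3.26 to 5.27, and Mir17, Mir20a, Mir106a and Mir363 had 6.44, 6.37, 5.87 and 6.40, all under the floor.

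In the miR-17-92 locus on chromosome 14, whose products promote proliferation, the members were Mir18, Mir19a, Mir19b-1 and the host transcript Mir17hg. Mir18 read 8.65 and 8.59 in LIF/PD arrays, 8.40 and 8.57 in GCSF arrays, and 8.45 and 8.54 in control arrays. Mir17hg read 7.18 and 7.48 in LIF/PD arrays, 7.81 and 7.48 in GCSF arrays, and 7.45 and 7.45 in control arrays. Its largest difference, -0.31 ± 0.12 for LIF/PD minus GCSF, did not pass (limma, adjusted p = 0.38), and its LIF/PD and GCSF arrays overlapped. With the control block as a covariate that difference was 0.025 (limma, adjusted p = 0.998). For Mir19a and Mir19b-1 all 3 differences lay between -0.12 and 0.07 with SE of 0.08 and 0.12, and their groups overlapped in every contrast.

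The miR-106b-25 genes Mir106b, Mir93 and Mir25 lie in Mcm7, a subunit of the replicative helicase, on chromosome 5. None of the 3 passed. Mir93 read 7.24 and 7.24 in LIF/PD arrays, 7.32 and 7.49 in GCSF arrays, and 7.34 and 7.32 in control arrays, a difference of -0.16 ± 0.08 for LIF/PD minus GCSF (limma, adjusted p = 0.447). Mir106b and Mir25 differed by between -0.06 and 0.02 in every contrast, with 95% intervals that reached no further than -0.26 and 0.22. Mcm7 itself differed by between 0.01 and 0.03.

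**Figure D5:**
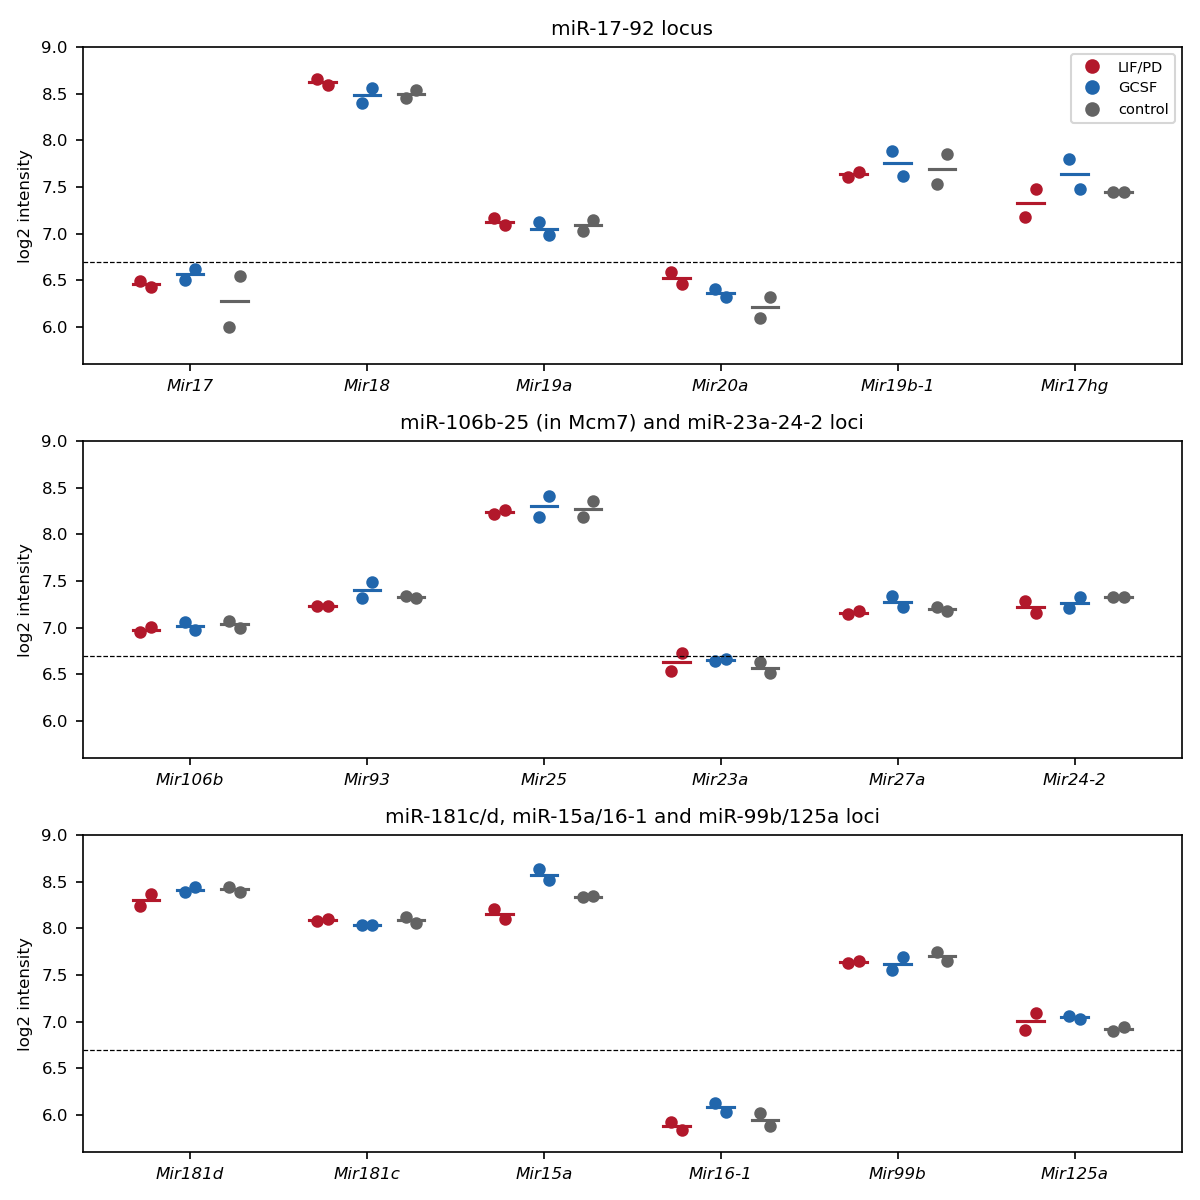
Log2 intensity (vertical axes) of features in microRNA clusters on each array, with LIF/PD, GCSF and control from left to right within each gene, a point for each array, a line at the group mean (n = 2) and the floor of 6.7 dashed. Mir17, Mir20a, Mir23a and Mir16-1 had means under the floor, and the 3 groups of Mir15a stood apart while those of Mir19a and Mir25 overlapped.

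Of 36 microRNA genes listed as known targets of STAT3, MYC, SRF, CREB, NF-kB or p53, 24 had a feature and 5 were members. Among these none was called in any contrast. Mir212, a CREB target beside Mir132, differed from control by 0.02 ± 0.08 in LIF/PD and -0.01 ± 0.08 in GCSF arrays. Mir24-2 and Mir27a, of the Mir23a cluster on chromosome 8, differed by -0.11 ± 0.08 and -0.04 ± 0.07 in LIF/PD and by -0.06 ± 0.08 and 0.08 ± 0.07 in GCSF arrays. Mir143, known from smooth muscle, differed by -0.09 ± 0.10 in LIF/PD and 0.03 ± 0.10 in GCSF arrays, and Mir200a, which restrains the Zeb factors in epithelium, by 0.03 ± 0.08 and 0.02 ± 0.08. The lowest unadjusted p among these 5 was 0.14. Mir132, the NF-kB target Mir155 and the p53 target Mir34a were dimmer than the floor, at means of 5.73, 6.16 and 5.70.

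Of the 11 pairs of members that share a seed, those given here with values were picked after their values were seen. Each of them has opposite signs for LIF/PD minus GCSF. So do Mir19a and Mir19b-1, Mir25 and Mir92b, Mir181c and Mir181d, Mir326 and Mir330, and Mir680-2 and Mir680-3. The remaining pairs, Mir93 and Mir106b, Mir138-1 and Mir138-2, and Mir194-1 and Mir194-2, had the same sign. Mir15a lay 0.42 ± 0.06 lower in LIF/PD than in GCSF arrays, and Mir497, which has the same seed, lay 0.06 ± 0.11 higher. Mir7-1, within Hnrnpk, and Mir7-2 both give miR-7a and differed between LIF/PD and GCSF by 0.16 ± 0.06 and -0.07 ± 0.08. Mir219a-1 and Mir219a-2 differed by 0.12 ± 0.07 and -0.24 ± 0.08. Of these values only that of Mir15a passed, and the differences between members were not tested.

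Among the 10 brightest members, Mir505 and Mir6516 are given above. Mir692-1 read 10.51 and 10.71 in LIF/PD arrays, 10.64 and 10.57 in GCSF arrays, and 10.53 and 10.81 in control arrays, and its groups overlapped. Mir598, the tightest of the brightest 10, read 9.23 and 9.23 in LIF/PD arrays, 9.21 and 9.22 in GCSF arrays, and 9.26 and 9.28 in control arrays, a range of less than 0.1 log2. Mir210, known as a hypoxia-induced gene, differed from control by -0.12 ± 0.07 in LIF/PD and -0.08 ± 0.07 in GCSF arrays. Mir320, known to be made without Drosha, differed by -0.15 ± 0.10 and -0.11 ± 0.10, and Mir328 by 0.02 ± 0.06 and -0.10 ± 0.06. None of these passed.

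Host genes were tested in the same fit. The 27 members with a same-strand host lay in 25 host genes, of which 22 were on the array and 18 were bright enough to be tested. None was called in any contrast (limma), and 1, 1 and 2 hosts had an unadjusted p under 0.05 for GCSF minus control, LIF/PD minus control and LIF/PD minus GCSF. The lowest adjusted p was 0.12, for Spaca6, the host of Mir99b and Mir125a, in LIF/PD minus GCSF (-0.28 ± 0.07). Spaca6 read 7.21 and 7.26 in LIF/PD arrays, 7.54 and 7.499 in GCSF arrays, and 7.30 and 7.30 in control arrays. Its GCSF arrays were the highest, whereas Mir99b and Mir125a differed between LIF/PD and GCSF by 0.01 ± 0.07 and -0.05 ± 0.08. Hnrnpk, an RNA-binding protein gene that holds Mir7-1, is represented by the brightest of its 3 features. That feature differed from control by -0.02 ± 0.04 in LIF/PD and 0.01 ± 0.04 in GCSF arrays. Whether it reads the locus of Mir7-1 was not tested.

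Genes of microRNA processing changed little. Of 30 listed genes, 29 were on the array and 28 were tested, and Ago4 (mean 6.14) was below the filter. None was called against control in LIF/PD arrays (3 with an unadjusted p under 0.05, median difference 0.00) or in GCSF arrays (5 with such a p, median 0.04, limma). The differences of GCSF from control with the smallest p were those of the splicing factor gene Srsf3 (0.16 ± 0.04, adjusted p = 0.152), the RNA helicase gene Ddx6 (0.15 ± 0.04, 0.142) the let-7 processing inhibitor Lin28a (0.15 ± 0.05, 0.296, limma) and the helicase gene Ddx5 (0.11 ± 0.03, 0.202). In LIF/PD arrays the differences with the smallest p were those of Lin28a (0.15 ± 0.05), the helicase genes Ddx5 (-0.08 ± 0.03) and Ddx17 (-0.11 ± 0.04), and the RNA-binding protein gene Khsrp (-0.06 ± 0.04). Between LIF/PD and GCSF 1 of the 28 was called. Ddx5, a helicase that assists Drosha and is represented by the brighter of its 2 features, read 12.13 and 12.11 in LIF/PD arrays, 12.33 and 12.29 in GCSF arrays, and 12.20 and 12.20 in control arrays. The groups did not overlap, and LIF/PD was lower by 0.19 ± 0.03 (limma, adjusted p = 0.0361). That call was lost under 13 of 18 alternatives, among them every one that left out an array.

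The core enzymes lay near control. Drosha differed by 0.00 ± 0.03 in LIF/PD and 0.08 ± 0.03 in GCSF arrays, its partner Dgcr8 by 0.00 ± 0.04 and 0.09 ± 0.04, and the export factor Xpo5 by 0.02 ± 0.04 and 0.02 ± 0.04. Dicer1 differed by 0.04 ± 0.03 in LIF/PD and 0.01 ± 0.03 in GCSF arrays, and Ago2 by -0.01 ± 0.04 and 0.02 ± 0.04. The adjusted p of Drosha in GCSF arrays, the lowest of these, was 0.401 (limma).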

How the data were processed

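Total RNA was extracted with TRIzol and labelled with biotin, per the labels' protocols. The table deposited by the authors holds 34760 features by 6 arrays, read here as log2 intensity from its values. The log base, background correction, summarization and normalization are not given in the sources used here, and values were used as deposited. Arrays have no read depth, and 2 arrays per group limit the precision.

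Symbols came from the platform annotation. A marker, label check, host or processing gene with several single-symbol features was represented by the brightest of them. The 9 let-7 features (Mirlet7) and the 35 microRNA features with several symbols are outside the rule. A control block of 6573 features, those numbered below the lowest annotated feature, was left out. The test ran on the 16912 others whose mean reached the 40th percentile (6.70). limma 3.58.1 in R 4.3.3 fitted 1 mean per group to all 6 arrays with an intensity trend (3 residual and 8.4 total degrees of freedom). Two-sided p-values were adjusted by Benjamini-Hochberg over all tested features, and a feature was called under 0.05. Errors are SE of the log2 difference. The procedure was tested on simulated data.

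Named members were those called in any contrast, the 5 with the smallest p in each direction and contrast without overlap, the 10 brightest, and those of the stem cell and factor target lists. Processing genes were named if called or among the 4 with the smallest p, and the others named are core enzymes added after their values were seen. Seed partners outside these rules, such as Mir497, Mir7-2, Mir219a-1 and Mir219a-2, were also added after their values were seen. Members and lists were chosen with earlier results of these data known. Coordinates are RefSeq's, GRCm38.p6. Alternatives covered the filter, scaling, moderation, covariates, a replicate block and each array left out.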

Additional observations from a re-analysis of the deposited data

How the results depend on the processing

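The number of members called for GCSF minus control was 1 with the filter at the 60th percentile, where 21 members were tested, 1 with the control block median as a covariate, 0 with no moderation, and 1 to 2 with 1 array left out. For LIF/PD minus GCSF it was 1 in the fit of only the arrays compared, 1 with no intensity trend, 0 with no moderation, 0 with the covariate, and 1 to 2 with 1 array left out. For LIF/PD minus control it was 0 under all 18 alternatives. Quantile normalization gave 3 members called for LIF/PD minus GCSF, as Mir100hg gained a call there. Of the 21 members left by the 60th percentile filter, 12 were without overlap for GCSF minus control. For LIF/PD minus control 13 of the 21 were, and for LIF/PD minus GCSF 13. Of all 70 members the numbers were 30, 31 and 28, so the counts fell while the shares of members rose. The share over all features at that filter is not given here. The processing gene called for LIF/PD minus GCSF was lost, leaving 0, in the fit of only the arrays compared, with no filter, with median centring, with no intensity trend, with no moderation, with features of a gene averaged, with the covariate, and in every fit with 1 array left out (0 to 0). The 60th percentile filter took Mir100hg (mean 6.93) out of the fit, so its call was not tested there, and the counts at that filter cover 21 members. The cause of the other changes was not tested. With 1 array left out, the median over members ran from -0.04 to -0.0056 for GCSF minus control, from -0.07 to -0.03 for LIF/PD minus control and from -0.06 to 0.01 for LIF/PD minus GCSF. Of 1725 values of named members under alternatives, 1627 kept their direction and side of the threshold, 18 lost a call, 1 gained one and 79 changed sign. None of the 4 called differences changed sign, and the lowest adjusted p among the 79 was 0.65 (limma). They came from 42 differences and are given next. For GCSF minus control under the covariate the difference was -0.012 for Mir17hg, 0.053 for Mir18, -0.073 for Mir218-1, 0.032 for Mir320, -0.11 for Mir19b-1, 0.027 for Mir212, -0.061 for Mir200a and 0.019 for Mir24-2. For LIF/PD minus control under the covariate the difference was 0.035 for Mir505, 0.013 for Mir17hg, 0.031 for Mir375, 0.018 for Mir692-1, -0.026 for Mir328 and 0.046 for Mir19b-1. For LIF/PD minus GCSF under the covariate the difference was 0.025 for Mir17hg, 0.064 for Mir125a, -0.0020 for Mir328, 0.15 for Mir19b-1, 0.016 for Mir106b and -0.026 for Mir212. For GCSF minus control under quantile normalization the difference was -0.00015 for Mir25. For LIF/PD minus control under quantile normalization the difference was 0.00018 for Mir128-1 and -0.0029 for Mir328. For LIF/PD minus GCSF under quantile normalization the difference was -0.0025 for Mir692-1. With 1 array left out, GCSF minus control ran from -0.098 to 0.067 for Mir18, -0.070 to 0.15 for Mir218-1, -0.24 to 0.011 for Mir6516, -0.21 to 0.078 for Mir692-1, -0.25 to 0.036 for Mir320, -0.100 to 0.031 for Mir19a, -0.10 to 0.23 for Mir19b-1, -0.085 to 0.13 for Mir25, -0.014 to 0.16 for Mir93, -0.060 to 0.029 for Mir106b, -0.10 to 0.087 for Mir212, -0.053 to 0.11 for Mir143 and -0.039 to 0.080 for Mir200a. With 1 array left out, LIF/PD minus control ran from -0.077 to 0.056 for Mir505, -0.085 to 0.030 for Mir128-1, -0.27 to 0.037 for Mir17hg, -0.010 to 0.17 for Mir125a, -0.12 to 0.082 for Mir375, -0.20 to 0.085 for Mir692-1, -0.0048 to 0.040 for Mir328, -0.020 to 0.099 for Mir19a, -0.22 to 0.11 for Mir19b-1, -0.12 to 0.049 for Mir25, -0.026 to 0.070 for Mir212, -0.22 to 0.049 for Mir143 and -0.045 to 0.10 for Mir200a. With 1 array left out, LIF/PD minus GCSF ran from -0.14 to 0.044 for Mir125a, -0.031 to 0.10 for Mir670, -0.092 to 0.11 for Mir692-1, -0.19 to 0.100 for Mir320, -0.12 to 0.031 for Mir210, -0.25 to 0.014 for Mir19b-1, -0.17 to 0.048 for Mir25, -0.087 to 0.0012 for Mir106b, -0.065 to 0.12 for Mir212, -0.25 to 0.018 for Mir143, -0.065 to 0.080 for Mir200a and -0.11 to 0.014 for Mir24-2. With the replicate number as a block, 2 members were called for GCSF minus control, 0 for LIF/PD minus control and 2 for LIF/PD minus GCSF, as without it, and it changed no other call. Deviations of samples with the same number correlated at 0.01, 0.08 and 0.10, so the numbers were not taken to pair the samples. Low brightness and 2 arrays per group limit what can be detected.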
